A study of Homo sapiens with 4 samples.

Results

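The genes described here are 50 genes of G2 and mitosis, the kinases, motors, kinetochore proteins and chromosome proteins that a cell makes as it prepares to divide. They were taken as a listed set of symbols, and all 50 were found among the 33540 features of the Ishikawa matrix and the 33538 of the T-47D matrix. Members with a mean of at least 10 CPM (UMI counts scaled to a common total, as below) over the 4 time points of a line were used for changes: 47 of 50 in Ishikawa, among 7885 such genes, and 39 of 50 in T-47D, among 7440. In Ishikawa CDC25C, GAS2L3 and PSRC1 stayed under the minimum, with GAS2L3 just outside it at 9.56 CPM and NEK2 the lowest inside it at 12.8 CPM. In T-47D AURKB, BUB1, CDC25C, CDCA2, CDCA3, CENPA, CKAP2L, GAS2L3, KIF2C, PSRC1 and TTK stayed under it, with TTK just outside at 9.47 CPM and PLK1 just inside at 10.2 CPM.

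Single-cell RNA sequencing was performed on Ishikawa, an endometrial adenocarcinoma line, and T-47D, a breast cancer line, to follow expression after 17β-estradiol (E2), the main estrogen. Both lines had spent 5 days in hormone-depleted medium, without phenol red and with charcoal-stripped serum, and then received 10 nM E2 for 2, 4 or 8 h or the vehicle DMSO, which is the 0 h group. Cells of the 4 time points were marked with MULTI-seq membrane barcodes and pooled within a line, and each line went into its own droplet library, so line and library cannot be told apart. Each line and time point was 1 culture of an established line. There was therefore no replicate and no test, every 95% interval covers counting error only, and the 3 comparisons of a line share its 0 h culture. Values are unique molecular identifiers (UMIs), each standing for 1 captured transcript, summed over the cells of a culture and scaled to the same total per culture (CPM). In such sums, fewer cells of a kind and less RNA per cell cannot be told apart.

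In order of time, the Ishikawa cultures gave 776, 1480, 892 and 1465 cells. The T-47D cultures gave 1525, 1207, 1341 and 553 cells, and a culture summed to 12927799 to 33175309 UMIs. The limits on cell quality kept 38.2% of the assigned Ishikawa cells at 0 h and 52.4% to 55.8% later, and all assigned T-47D cells. Median UMIs per cell differed with time, from 19122 at 0 h to 20860 at 8 h in Ishikawa and from 20677 to 22576 in T-47D. The Ishikawa library also held GFP transcripts, whose origin is not given in the sources used here, at 46740, 31688, 39547 and 41036 CPM. The lines carried their own markers. The summed level of 7 endometrial markers was 641 to 778 CPM in Ishikawa and 0.928 to 1.72 CPM in T-47D, and that of 7 luminal breast markers was 1932 to 2227 CPM in T-47D and 19.2 to 25.7 CPM in Ishikawa. The 2 libraries shared 80 barcode sequences.

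Entry into mitosis is driven by CDK1 bound to B-type cyclins, with Polo-like and Aurora kinases acting beside it. Kinetochore proteins and motors attach chromosomes to the spindle, the spindle checkpoint holds the anaphase-promoting complex (APC/C) until all are attached, and APC/C with CDC20 then marks cyclin B for destruction. Most of these genes are transcribed in late S phase and G2 and lose their transcripts after division, so their sum over a culture follows both how many cells are near mitosis and how much each holds. Estrogen is known to drive hormone-deprived, receptor-positive breast cancer cells from G1 into S phase.

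Transcription of such genes is known to involve the factor NF-Y, which binds CCAAT boxes, and the cell cycle homology region, with the letters TTTGAA, where the DREAM and MYB-MuvB complexes bind. RefSeq promoters (GRCh38.p14, 250 bases before to 50 after the transcript start) were matched by symbol for 42 of 50 members. Letters were searched on both strands. The first listed promoter of each symbol was read, so letters at other transcript starts or outside this stretch were not counted. CCAAT was found in 28 of the 42 (66.7%) and in 35.7% of 27305 promoters, at least 2 CCAAT in 20 (47.6%) and in 11.3%, and TTTGAA in 29 (69.0%) and in 15.4%. Both stood in 23 of the 42 (54.8%), against 6.08% of all promoters. Neither stood in the stretch read for 8 of the 42, which were CDC25C, CENPE, CKAP2, GAS2L3, KIF2C, LBR, RANGAP1 and TACC3. Of these, CENPE, TACC3 and RANGAP1 lie at the ends of the changes described further on, while CKAP2, KIF2C and LBR do not. CDC25C and GAS2L3 were under the minimum in both lines. A link between these letters and the changes was not tested. CCNB1 held 2 CCAAT and no TTTGAA. A match is a description of letters and not a shown binding site.

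The upstream 250 bases are shown for 4 members that hold both motifs, those with the lowest summed rank of change at 8 h in the 2 lines, with CCAAT and TTTGAA of either strand in capitals. CCNB2 (ENSG00000157456) lies on the plus strand at chr15:59104896-59105145, NUSAP1 (ENSG00000137804) on the plus strand at chr15:41332631-41332880, TOP2A (ENSG00000131747) on the minus strand at chr17:40417897-40418146 and CDC20 (ENSG00000117399) on the plus strand at chr1:43358731-43358980. The TTTGAA of NUSAP1 lies after the transcript start and is not in the stretch shown.
CCNB2: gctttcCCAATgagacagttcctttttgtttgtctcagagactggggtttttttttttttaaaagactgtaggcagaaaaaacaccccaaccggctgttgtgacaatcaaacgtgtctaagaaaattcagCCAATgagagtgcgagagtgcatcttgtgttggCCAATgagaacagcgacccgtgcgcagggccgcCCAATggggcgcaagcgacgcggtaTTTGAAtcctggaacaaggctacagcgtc
NUSAP1: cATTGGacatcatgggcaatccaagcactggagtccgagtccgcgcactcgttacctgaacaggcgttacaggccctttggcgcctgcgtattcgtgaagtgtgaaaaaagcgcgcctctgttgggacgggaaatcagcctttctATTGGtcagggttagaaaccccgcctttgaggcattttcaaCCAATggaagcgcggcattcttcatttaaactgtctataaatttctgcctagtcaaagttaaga
TOP2A: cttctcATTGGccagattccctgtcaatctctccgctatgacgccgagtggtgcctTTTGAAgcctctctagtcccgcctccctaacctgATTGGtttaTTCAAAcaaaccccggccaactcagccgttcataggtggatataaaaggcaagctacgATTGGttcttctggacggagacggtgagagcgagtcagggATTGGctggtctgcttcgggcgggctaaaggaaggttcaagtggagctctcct
CDC20: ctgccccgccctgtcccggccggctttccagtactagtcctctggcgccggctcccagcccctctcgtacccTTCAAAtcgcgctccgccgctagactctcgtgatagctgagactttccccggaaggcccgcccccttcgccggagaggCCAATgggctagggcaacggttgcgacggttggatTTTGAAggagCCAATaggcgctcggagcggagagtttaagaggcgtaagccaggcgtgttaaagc
These show repeated CCAAT letters, 4 in CCNB2 and TOP2A, 3 in NUSAP1 and 2 in CDC20. Changes of these genes are given with their roles below.

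In Ishikawa the members were lower after E2 from 4 h onwards, by small amounts. Changes are given as log2((CPM + 1)/(CPM at 0 h + 1)), which understates those of low genes. The median over the 47 members was -0.03 at 2 h, -0.20 at 4 h and -0.23 at 8 h, while that over all 7885 genes was -0.01, -0.01 and 0.00. Below 0 lay 29 of 47 members at 2 h, against 54.5% of all genes, 42 at 4 h, against 53.8%, and 43 at 8 h, against 49.7%. No member was lower by at least 0.32 on this scale, which is 20% lower, at 2 h, where 4.1% of all genes were. At 4 h 9 of 47 were, against 4.63% of all genes, and at 8 h 15 of 47, against 4.21%. No member was higher by 0.32 or more, which is 25% higher, at any time, where 2.4%, 2.56% and 3.89% of all genes were. At 8 h 35 members had a counting interval of the CPM ratio wholly below 1, as 17.7% of all genes did. No member was lower by 1.5-fold, as 0.469% of all genes were at 8 h. In cells with under 1% GFP the median at 8 h was -0.35 with 28 of 48 members lower by 0.32 or more, against 5.72% of all genes. With every assigned cell, the quality limits dropped, it was -0.18 with 9 of 48 members, against 7.85%.

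In T-47D the members were higher at 8 h. The median over 39 members was -0.06 at 2 h, 0.01 at 4 h and 0.17 at 8 h, beside 0.01, -0.01 and 0.01 over all 7440 genes. Above 0 lay 11 of 39 members at 2 h, against 52% of all genes, 23 at 4 h, against 47.2%, and 32 at 8 h, against 51.9%. At 8 h 8 members were higher by 0.32 or more, against 7.11% of all genes, and at 2 and 4 h none was, against 3.41% and 4.49%. None was lower by 0.32 or more at 2, 4 or 8 h, where 1.68%, 2.76% and 4.44% of all genes were. At 8 h 1 member was higher by 1.5-fold, against 2.34%. When cells above 1.5 times the median UMI number were left out, the 8 h median was 0.043 and 2 of 37 members were higher by 0.32 or more, against 6.83% of all genes, so the size of this change depends on whether those cells are counted. The 11 members under the minimum had 2.75 to 12.3 CPM in T-47D. Among them CKAP2L was at 3.95, 4.26, 4.76 and 6.96 CPM and TTK at 8.38, 8.18, 9.01 and 12.3 CPM.

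**Figure D1:**
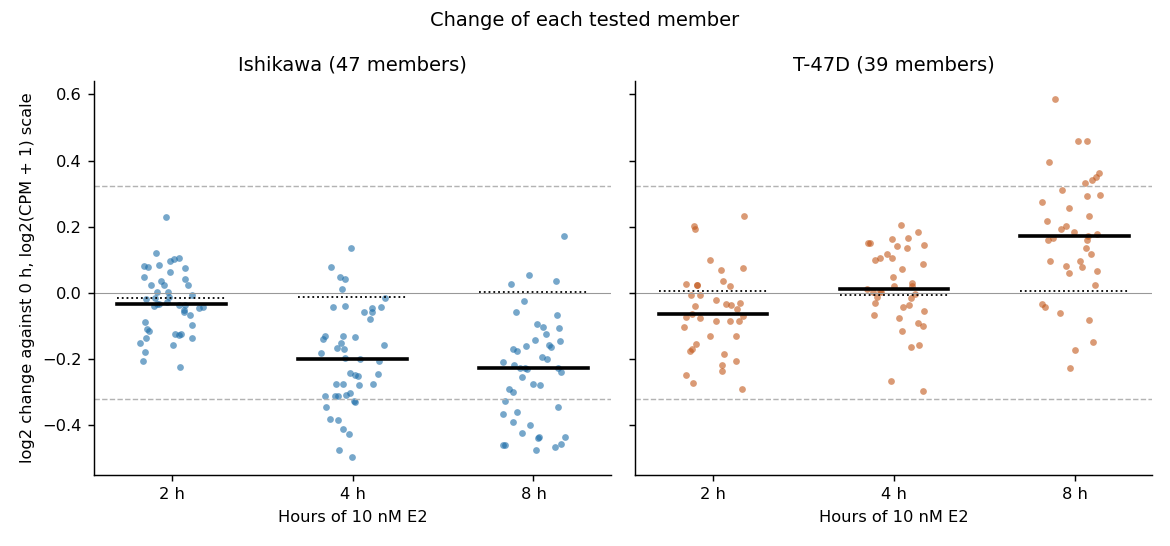
Change of each tested member against 0 h of its line, as log2 of the ratio of CPM + 1 (y axis), at 2, 4 and 8 h of E2 (x axis). Each point is 1 gene, the solid bar is the median of the members, the dotted bar the median of all genes and the dashed lines mark 0.32 either way; at 8 h the solid bar lies at -0.23 in Ishikawa and at 0.17 in T-47D.

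The kinases and cyclins differed among themselves. CDK1 (ENSG00000170312), the kinase that starts mitosis, was at 81.7, 79.3, 73.4 and 73.1 CPM at 0, 2, 4 and 8 h in Ishikawa and at 71.0, 64.8, 76.5 and 91.6 CPM in T-47D. It was thus lowest at the late times in one line and highest at 8 h in the other, with changes at 8 h of -0.16 (interval of the ratio -0.26 to -0.06) and 0.36 (0.27 to 0.47). Its partner CCNB1 (ENSG00000134057), cyclin B1, did not follow it in T-47D, where it was at 83.3, 72.1, 74.6 and 71.1 CPM and 8 h was the lowest value (-0.23, interval -0.34 to -0.12). In Ishikawa CCNB1 was at 133, 140, 120 and 118 CPM.

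CCNB2, cyclin B2, was at 65.8, 65.0, 54.2 and 48.4 CPM in Ishikawa (-0.44 at 8 h, interval -0.56 to -0.33) and at 33.2, 28.4, 27.5 and 29.4 CPM in T-47D (-0.17, interval -0.35 to -0.01). It was the lowest of its group in Ishikawa, and all 3 E2 cultures lay under 0 h in both lines. PLK1, the Polo-like kinase, was at 19.1, 19.8, 15.6 and 15.4 CPM in Ishikawa and at 9.68, 9.16, 10.5 and 11.3 CPM in T-47D, where its 8 h interval (-0.07 to 0.51) spans 0. AURKA, the centrosomal Aurora kinase, was at 25.4, 25.4, 24.6 and 20.6 CPM in Ishikawa and at 50.3, 48.1, 54.7 and 56.9 CPM in T-47D. AURKB, the kinase of the chromosomal passenger complex, was at 20.4, 21.7, 17.0 and 17.4 CPM in Ishikawa and at 7.66 to 8.12 CPM in T-47D, under the minimum. The CDK-binding subunit CKS2 was the highest of the group in Ishikawa at 8 h (0.04), and NEK2, a centrosome kinase, was at -0.28 in Ishikawa and -0.15 in T-47D. Of the 8 tested members of this group in T-47D, 5 were above 0 at 8 h, against 51.9% of all genes. The 3 below were CCNB1, CCNB2 and NEK2.

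Kinetochore and centromere members held the lowest value in Ishikawa. CENPE (ENSG00000138778), a kinetochore motor, was at 55.5, 51.4, 39.7 and 39.7 CPM, a change of -0.48 at 8 h (interval -0.61 to -0.36) that was already reached at 4 h. In T-47D it was at 19.4, 15.7, 15.6 and 18.6 CPM, lower at 2 and 4 h (-0.29 and -0.30) and near 0 h at 8 h (-0.06, interval -0.28 to 0.15). CENPF (ENSG00000117724), a large kinetochore protein, was at 223, 200, 165 and 161 CPM in Ishikawa (-0.46 at 8 h, interval -0.53 to -0.40).

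In T-47D CENPF was at 229, 189, 217 and 259 CPM, so it was lowest at 2 h and highest at 8 h. NDC80, the microtubule-binding subunit of the outer kinetochore, was at 31.3, 27.5, 23.8 and 22.8 CPM in Ishikawa and at 9.68, 11.3, 11 and 13.7 CPM in T-47D, with changes at 8 h of -0.44 (-0.62 to -0.28) and 0.46 (0.23 to 0.77). CENPA, the centromeric histone, was at 15.1, 17.9, 15.6 and 14.4 CPM in Ishikawa, with an 8 h interval that spans 0, and at 6.42 to 8.2 CPM in T-47D. BIRC5 (survivin), of the passenger complex, was at 98.1, 106, 104 and 89.9 CPM in Ishikawa and stayed between 45.5 and 49.7 CPM in T-47D. All 8 members of the group were below 0 in Ishikawa at 8 h, against 49.7% of all genes. In T-47D 5 of 6 were above 0, against 51.9%.

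Spindle and motor members gave the lowest median of the 6 role groups in Ishikawa, -0.33 at 8 h. All 12 tested were below 0, against 49.7% of all genes, and 7 were lower by 0.32 or more, against 4.21%. TPX2, which activates Aurora A on the spindle, was at 80.8, 77.9, 67.8 and 64.2 CPM in Ishikawa and at 73.3, 71.6, 80.6 and 87.7 CPM in T-47D, at 8 h -0.33 (-0.43 to -0.23) and 0.26 (0.16 to 0.36). KIF11, the motor that separates spindle poles, was at 47.6, 41.1, 35.5 and 36.8 CPM in Ishikawa and at 22.3, 20.7, 23.1 and 25.6 CPM in T-47D. HMMR, a spindle assembly factor, was the lowest of the group in Ishikawa at 18.6, 19.7, 14.8 and 13.5 CPM (-0.44, interval -0.68 to -0.24).

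In T-47D HMMR was at 47.6, 44.8, 48.7 and 60.6 CPM (0.34, interval 0.22 to 0.47). TACC3, which crosslinks spindle microtubules, was the highest member in T-47D, at 12.8, 15.2, 14.8 and 19.6 CPM (0.59, interval 0.39 to 0.85), and in Ishikawa it was at 40.6 to 37.7 CPM with an interval that spans 0. NUSAP1, DLGAP5, GTSE1 and CKAP2L, all microtubule-associated, were at -0.40, -0.39, -0.37 and -0.34 in Ishikawa at 8 h. The first 3 were at 0.06, 0.10 and 0.07 in T-47D. The tubulin TUBB4B and the microtubule polymerase CKAP5 were closer to 0, at -0.17 and -0.02 in Ishikawa. Their T-47D values were -0.04 and 0.02.

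Of the checkpoint and APC/C members, TTK, the kinase that sets up the spindle checkpoint, was the lowest in Ishikawa at 8 h (-0.46). All 5 were below 0 there, against 49.7% of all genes. BUB1, another checkpoint kinase, was at 17.0, 17.0, 15.4 and 14.1 CPM there and at 5.35 to 7.43 CPM in T-47D, under the minimum. CDC20, which activates the APC/C, was at 63.4, 66.9, 55.8 and 52.2 CPM in Ishikawa (-0.28, interval -0.40 to -0.17) and at 17.3, 15.3, 15.4 and 16.3 CPM in T-47D (-0.08, interval -0.32 to 0.14). UBE2C, the ubiquitin-conjugating enzyme of the APC/C, was at 105, 109, 84.8 and 91.5 CPM in Ishikawa and at 57.5, 52.4, 57.4 and 63.3 CPM in T-47D.

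BUB1B, which encodes the checkpoint protein BUBR1, stood apart from CDC20 in T-47D, at 11.2, 11.8, 12.6 and 15.7 CPM (0.46 at 8 h, interval 0.24 to 0.74). Among cytokinesis and entry members, the scaffold ANLN (ENSG00000011426) was highest in T-47D at 34.5, 33.6, 34.6 and 45.6 CPM (0.40, interval 0.26 to 0.55), with 0, 2 and 4 h alike. In Ishikawa it was at 57.2, 48.9, 52.2 and 53.5 CPM. CDCA3, of the same group, was at -0.46 in Ishikawa.

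**Figure D2:**
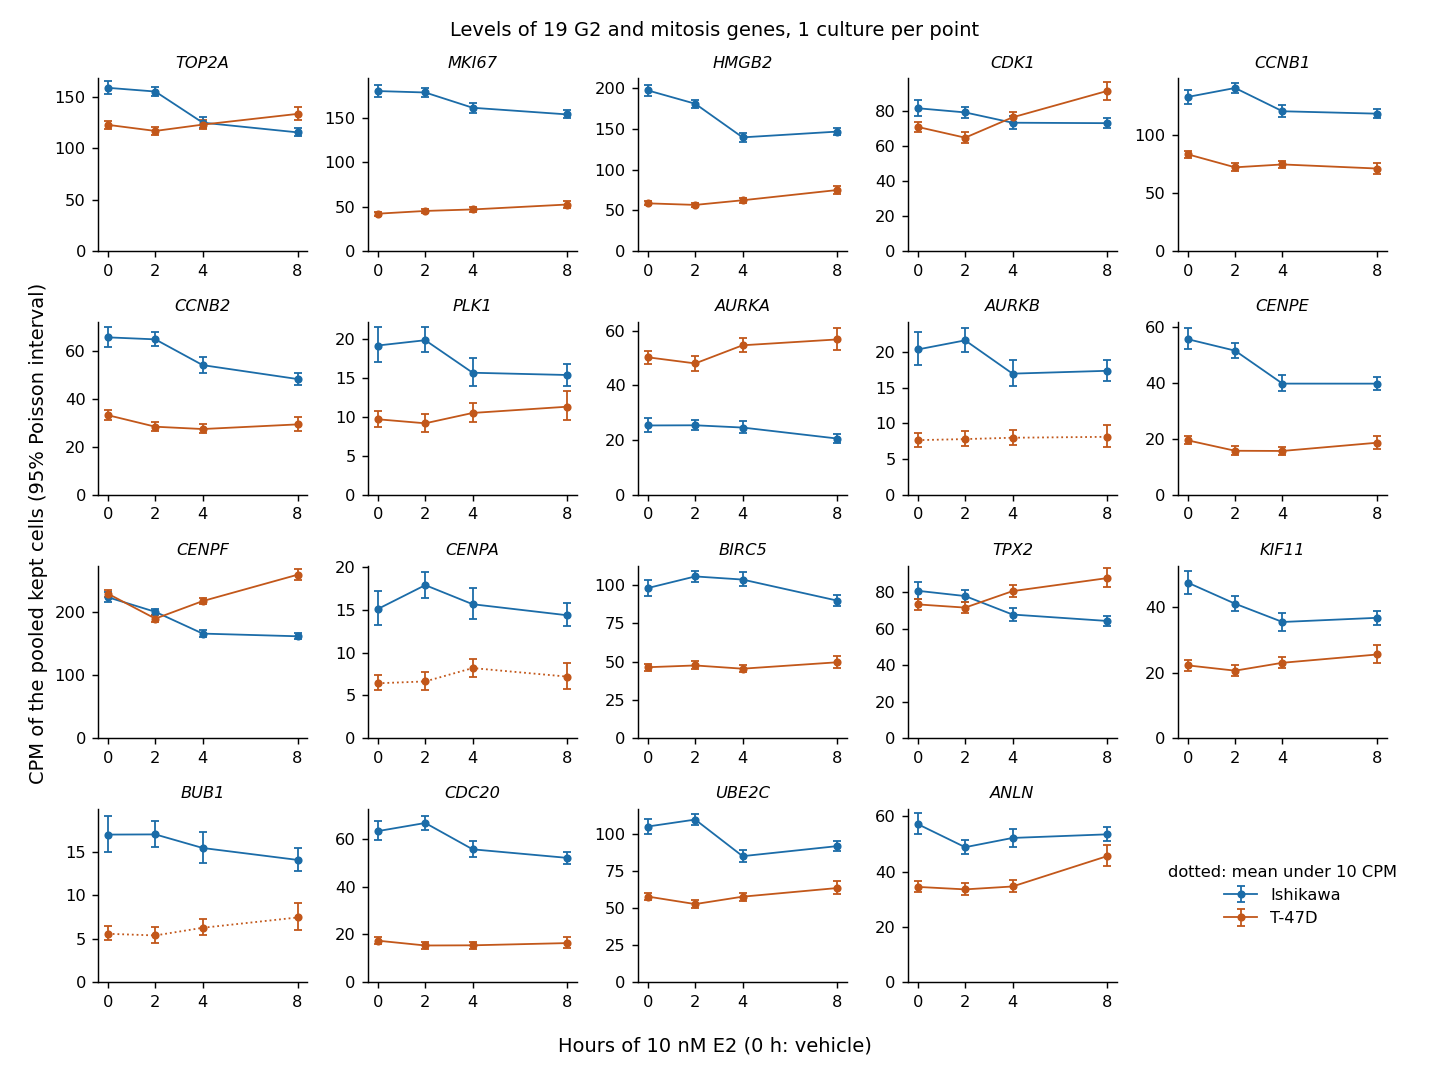
CPM of 19 members in the summed cells of each culture (y axis, from 0) against hours of E2 (x axis), Ishikawa in blue and T-47D in orange. Error bars are 95% Poisson intervals and dotted lines mark a mean under 10 CPM; TOP2A, HMGB2 and CENPE drop between 2 and 4 h in Ishikawa, while CDK1 and ANLN reach their highest T-47D level at 8 h.

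Chromosome structure and nuclear envelope members had the widest range of the 6 role groups in Ishikawa at 8 h, from -0.46 to 0.17. TOP2A, the topoisomerase that untangles sister chromatids, was at 159, 155, 125 and 115 CPM in Ishikawa (-0.46, interval -0.53 to -0.38) and at 123, 117, 123 and 133 CPM in T-47D (0.12, interval 0.04 to 0.20). MKI67 (ENSG00000148773), which encodes the proliferation marker Ki-67, was at 180, 179, 161 and 154 CPM in Ishikawa and at 42.1, 45.2, 46.9 and 52.4 CPM in T-47D, at 8 h -0.23 and 0.31. HMGB2 (ENSG00000164104), a chromatin protein, was at 197, 181, 140 and 147 CPM in Ishikawa (-0.42, interval -0.49 to -0.36) and at 58.7, 56.7, 62.4 and 75 CPM in T-47D (0.35, interval 0.24 to 0.47).

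RANGAP1, the GTPase-activating protein of Ran, was the highest member in Ishikawa, at 25.5, 27.5, 28.1 and 28.9 CPM (0.17, interval 0.01 to 0.35). It was also higher in T-47D, at 21.2, 21.5, 23.4 and 26.9 CPM (0.33, interval 0.16 to 0.53). The lamin B receptor LBR and the histone chaperone ANP32E were near 0 in both lines, between 0.03 and 0.08. The condensin subunit SMC4 was at -0.11 in Ishikawa and 0.29 in T-47D.

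Set side by side at 8 h, 28 of the 39 members tested in both lines were lower in Ishikawa and higher in T-47D, a pattern shown by 20.8% of the 6404 genes tested in both. None was the other way round. The share of all genes was not computed for this pattern, nor for the members lower or higher in both lines. Members count here by sign, whatever the size of the change. HMGB2, HMMR and NDC80 passed 0.32 in opposite directions, as 0.219% of all genes did. The 7 members lower in both were CENPE, CCNB1, CCNB2, NEK2, CDC20, CKAP2 and TUBB4B, and the 4 higher in both were RANGAP1, LBR, ANP32E and CKS2. Of the 7, only CCNB1 and CCNB2 had counting intervals wholly below 0 in both lines, and the others spanned 0 in T-47D. Of the 4, only RANGAP1 had intervals wholly above 0 in both, and the others spanned 0 in Ishikawa. The difference between lines could not be tested with 1 culture each.

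**Figure D3:**
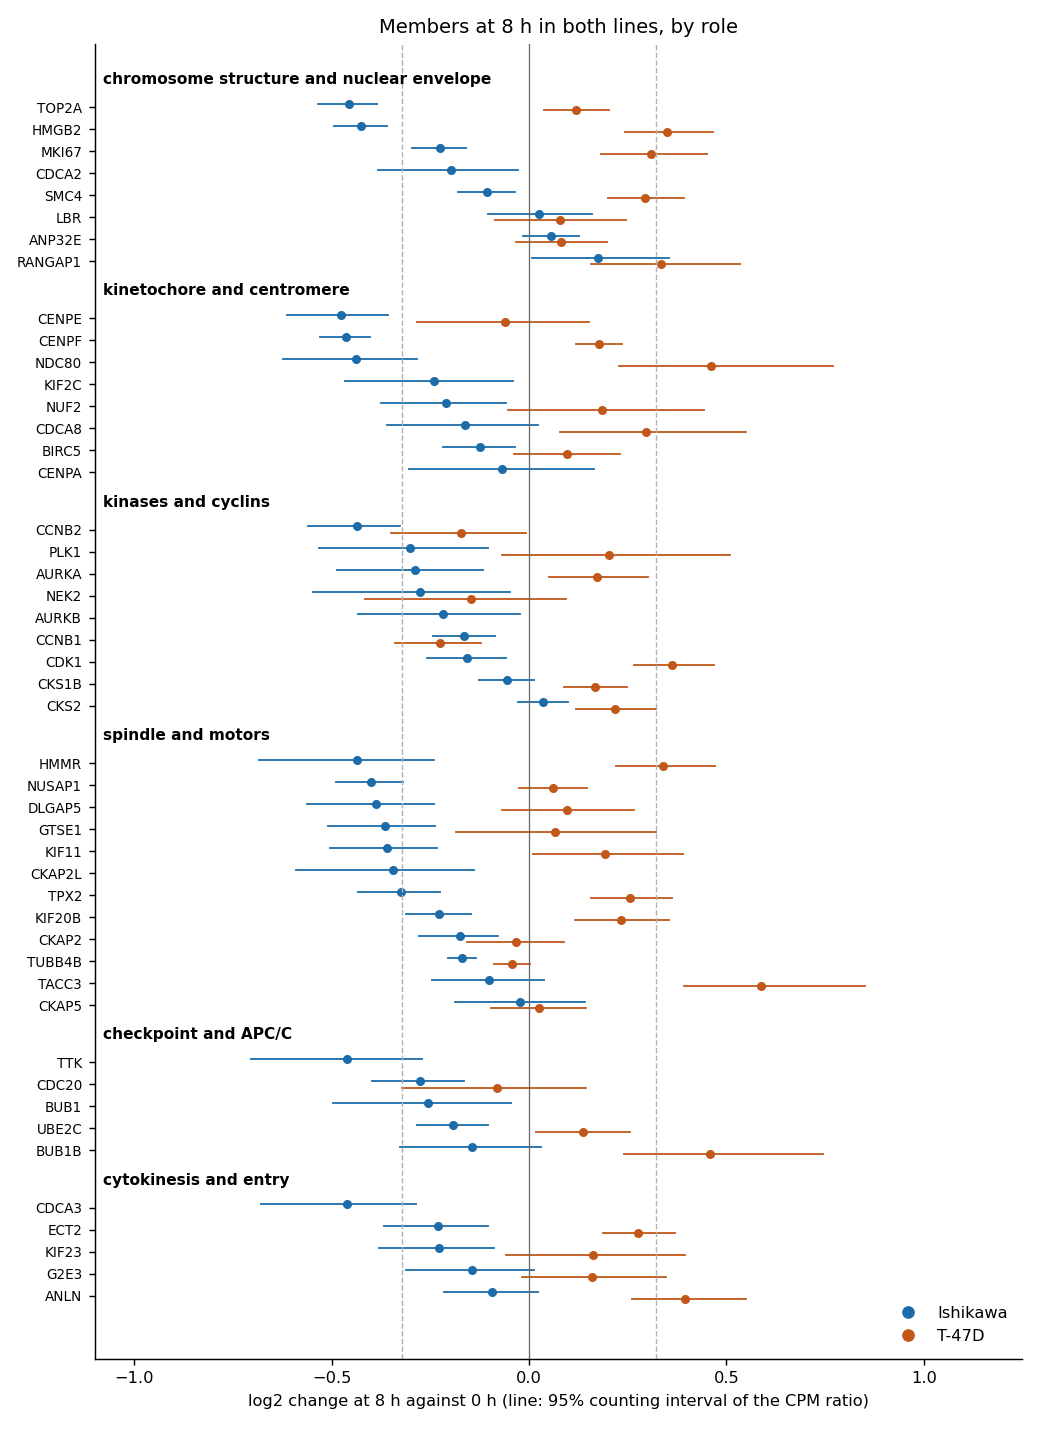
log2 change of each tested member at 8 h against 0 h (x axis), by role, Ishikawa in blue and T-47D in orange. Lines are 95% counting intervals of the CPM ratio and dashed lines mark 0.32 either way; members such as NDC80 lie at -0.44 in one line and 0.46 in the other, while CCNB1 lies left of 0 in both.

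The lines also differed before E2. At 0 h the median of T-47D minus Ishikawa was -0.72 over 39 members and -0.11 over 6404 genes, with 23 members lower in T-47D by 1.5-fold, against 28.5% of all genes, and 4 higher, against 20.3%. The lowest was MKI67 (-2.07). The 4 higher were HMMR (1.31), CKAP5 (0.97), AURKA (0.96) and ECT2 (0.90). At 8 h the median difference was -0.50, against -0.10 over all genes, with 15 members lower by 1.5-fold, against 27.6% of all genes, and 5 higher, against 21.1%.

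To describe how the members were spread over cells, each cell was thinned at random to 10000 UMIs and its member UMIs were summed. TUBB4B was found in 94.7% of thinned Ishikawa and 93.0% of T-47D cells. In cells under 20 member UMIs it was at 316 CPM in Ishikawa and 323 CPM in T-47D. The shares were not recomputed without it. In Ishikawa 49.5%, 50.8%, 50.4% and 48.3% of cells held at least 20 member UMIs at 0, 2, 4 and 8 h, and the 8 h interval of the difference ran from -5.66 to 3.26 percentage points. Before thinning the shares were 69.3%, 70.0%, 76.7% and 74.2%, in cells that also held more UMIs. Cells with at least 100 member UMIs made up 8.17% (95% exact binomial interval 6.32% to 10.4%) at 0 h, 6.79% at 2 h, 4.78% at 4 h and 4.02% (3.07% to 5.17%) at 8 h. This upper limit was chosen after the values were seen. Those cells held 33.6% of all member UMIs at 0 h and 17.7% at 8 h. Without thinning the share at 100 UMIs was 0.51 percentage points higher at 8 h than at 0 h, so this difference depends on setting cells to the same depth.

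T-47D cells with many member UMIs were fewer. At least 20 member UMIs were held by 13.5% of cells (11.8% to 15.3%) at 0 h, 11.6% at 2 h, 14.8% at 4 h and 21.3% (18% to 25%) at 8 h, and the interval of the 8 h difference ran from 4.02 to 11.9 percentage points. Before thinning the shares were 59.7%, 56.9%, 60.8% and 69.4%. The added cells lay low in the range: 6.62% of cells held 20 to 49 member UMIs at 0 h and 13.7% (11% to 16.9%) at 8 h, while 5.11% and 5.06% held at least 100. Member CPM within the cells past 20 UMIs was 10523 at 0 h and 7622 at 8 h, and in the other cells it was 1006 and 1021. Between 18 and 22 UMIs, near the limit, lay 4.52%, 2.73%, 5.89% and 7.41% of T-47D cells at 0, 2, 4 and 8 h. This share near the limit was thus also highest at 8 h. In Ishikawa it was 5.93% to 6.44% of cells.

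When only the share of cells past 20 UMIs was set to that of 8 h and both levels were kept at 0 h, the summed T-47D level was 0.41 higher on the log2 scale, and when only the levels were set to 8 h it was 0.26 lower. In Ishikawa the share alone gave -0.02 and the levels alone -0.16. Over thinned cells, which count equally, the whole change was 0.08 in T-47D and -0.19 in Ishikawa. The cells were split by the same UMIs that are summed, so a cell that crosses the limit changes both the share and the level, and the 2 parts cannot be told apart. With a limit of 50 UMIs the T-47D share was 0.71 percentage points higher at 8 h. With cells above 1.5 times the median UMI number left out, the T-47D share was still 6.43 percentage points higher at 8 h.

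**Figure D4:**
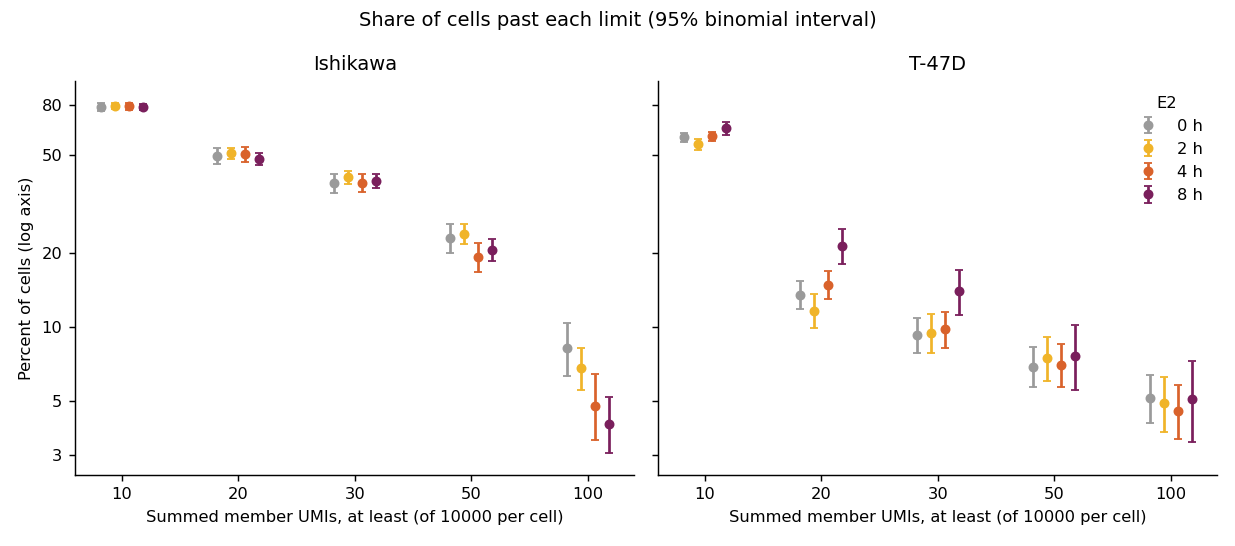
Percent of cells (log y axis) with at least 10, 20, 30, 50 or 100 member UMIs after thinning each cell to 10000 UMIs (x axis), by hours of E2, with 95% exact binomial intervals. In Ishikawa the points separate at 100 UMIs, from 8.17% at 0 h to 4.02% at 8 h, and in T-47D at 20 UMIs, from 13.5% to 21.3%.

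The members were not spread alike over these cells, which were ranked by the members themselves, so the following is a description. In Ishikawa PLK1 was at 6.25 CPM in cells with 20 to 49 member UMIs and at 135 CPM in cells with at least 100, and AURKA at 11.5 and 151 CPM. SMC4 was at 161 and 343 CPM in the same cells, ANLN at 62.4 and 148 CPM and CDK1 at 85.0 and 236 CPM. DLGAP5, a spindle protein, was at 17.2 and 213 CPM. Thus PLK1, AURKA and DLGAP5 were concentrated at the top of the range, and SMC4, ANLN and CDK1 were already present lower down.

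T-47D cells showed an order that was only partly alike. PLK1 was at 5.42 CPM in cells with 20 to 49 member UMIs and at 144 CPM in cells with at least 100. NUSAP1 was at 75 and 1442 CPM in the same cells, RANGAP1 at 31.3 and 61.5 CPM and CKS1B at 196 and 508 CPM. Between these groups of cells CDK1, SMC4, ANLN and NUSAP1 rose by a larger factor in T-47D than in Ishikawa, and AURKA by a smaller one. The group of at least 100 has no upper end and reached higher in T-47D. At 0 h the 99th percentile of member UMIs per cell was 290 in T-47D and 194 in Ishikawa. The part of this in the factors was not tested. Transcripts of 50 S phase genes (MCM, GINS and other replication factors) were also unevenly spread. T-47D cells at 0 h held a mean of 7.12 S phase UMIs under 20 member UMIs, 33.9 from 20 to 49, 68.4 from 50 to 99 and 40.5 at 100 or more. At 8 h the means were 8.2, 38.6, 85.4 and 44.2 in the same order. In Ishikawa the means at 0 h were 18.9 under 20 member UMIs, 41.6 from 20 to 49, 41.3 from 50 to 99 and 22.7 at 100 or more. At these times S phase transcripts were thus highest in the middle of the member range, at 50 to 99 member UMIs in T-47D and from 20 to 99 in Ishikawa. The T-47D means at 50 to 99 came from few cells, 27 at 0 h and 14 at 8 h. At 2 h the T-47D means were 79.7 at 50 to 99 and 53.6 at 100 or more. At 4 h they were close to each other, 57.3 and 56.2.

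The makeup of member UMIs within cells past 20 also differed with time. In T-47D CCNB2 gave 1.85% (1.68% to 2.04%) of them at 0 h and 1.2% (1.03% to 1.5%) at 8 h, CCNB1 3.59% and 2.74%, and TOP2A 7.39% and 6.23%. CDK1 gave 3.48% (3.24% to 3.74%) at 0 h and 4.28% (3.87% to 4.72%) at 8 h, and CKS1B 3.04% and 4.06%. In Ishikawa TOP2A gave 4.35% and 3.72% and CENPF 6.08% and 5.33%, while CKS1B gave 4.18% and 4.87% and CKS2 4.58% and 5.43%. ANLN gave 1.37% and 1.68%, ANP32E 3.49% and 3.99%, HMGB2 5.15% and 4.58% and NUSAP1 3.39% and 2.95%. These are 5 of 39 tested members in T-47D and 8 of 47 in Ishikawa. They are all those whose counting intervals at 0 and 8 h do not overlap. The same share over all genes was not computed, and UMIs of 1 cell are not independent. The cells were also chosen by the same UMIs. In T-47D the mix of these cells differed, with 6.62% of all cells at 20 to 49 member UMIs at 0 h and 13.7% at 8 h. The part of that mix in the makeup was not tested.

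Cells past 20 member UMIs differed from the others in further measures. In Ishikawa at 0 h they had a median of 22026 total UMIs, against 17286, and 0.451% GFP, against 1.31%, and Spearman's rho between GFP and the member sum was -0.35, -0.31, -0.25 and -0.32 at 0, 2, 4 and 8 h. In T-47D at 0 h total UMIs were 23256 and 20454, and mitochondrial shares 9.08% and 10.6%. The part of these measures in the changes was not tested, beyond the values in cells under 1% GFP and under the lower UMI limit given above.

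Across thinned cells the members went together. The median Spearman's rho over the 1081 pairs of Ishikawa members was 0.31, 0.28, 0.24 and 0.25 at 0, 2, 4 and 8 h, and over the 741 T-47D pairs it was 0.31, 0.31, 0.30 and 0.30, while over all pairs of genes it was at most 0.01 in every culture. All pairs share the cells and their depth, so these are descriptions. The highest mean over time points was TOP2A with MKI67 in Ishikawa (0.61) and MKI67 with BIRC5 in T-47D (0.60). MKI67 was the best linked member in both, with rho to the summed UMIs of the other members of 0.70 in Ishikawa and 0.44 in T-47D.

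The weakest links were shared by the lines too. G2E3, a ubiquitin ligase, was at 0.19 in Ishikawa and 0.11 in T-47D, LBR at 0.22 and 0.10, CKAP5 at 0.23 and 0.14 and RANGAP1 at 0.24 and 0.12. Over 39 members these values correlated between the lines at r = 0.76 and rho = 0.69, over genes and not replicates. MKI67 was at 253 CPM in T-47D cells with at least 20 UMIs of the other members and at 2.70 CPM in the rest, a ratio of 94.0, against 10.3 in Ishikawa (281 and 27.3 CPM). For LBR the ratios were 2.42 and 1.76. The median ratio was 22.1 in T-47D and 9.98 in Ishikawa.

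**Figure D5:**
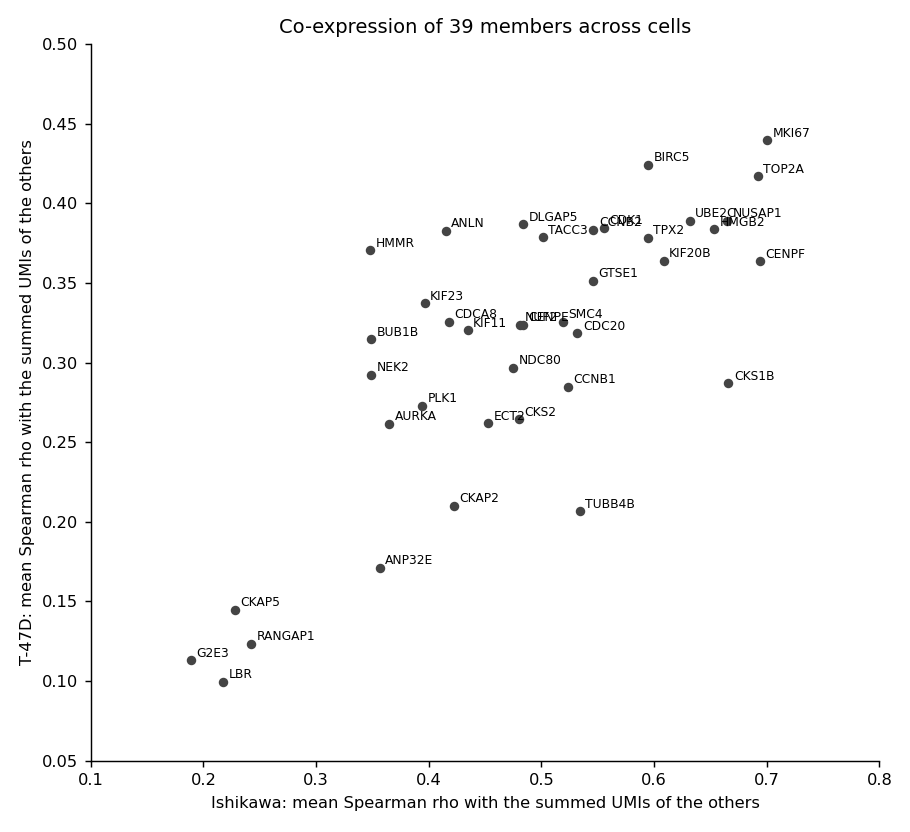
Spearman's rho of each of 39 members with the summed UMIs of the other members, mean of 4 time points, in Ishikawa (x axis) and T-47D (y axis). Each point is 1 gene; MKI67, TOP2A and BIRC5 lie at the top and G2E3, LBR, CKAP5 and RANGAP1 at the bottom left.

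Of genes that are no members, TUBA1B, an alpha-tubulin, had the highest mean rho with the member sum in both lines (0.68 in Ishikawa and 0.44 in T-47D), and H2AFZ, a histone variant of chromatin, came next in Ishikawa (0.67). In T-47D PCLAF, which binds the replication clamp PCNA, came next and H2AFZ after it (both 0.42). Next in Ishikawa were UBE2S, CDKN3, PTTG1, NUCKS1, PCLAF, TUBB, MAD2L1 and PBK (0.56 to 0.59). The others in T-47D were CENPU, CEP55, FAM111B, PBK, MYBL2, ATAD2 and TYMS (0.40 to 0.42), among which TYMS makes thymidylate for DNA synthesis. The lowest were SNHG19 (-0.31), SNHG8, RPL37, SQSTM1 and RPL34 in Ishikawa and RPS27 (-0.24), RPL10A, EEF1A1, RPL23 and RPS14 in T-47D, mostly ribosomal protein genes and hosts of small nucleolar RNAs.

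Lists of related genes, chosen with earlier results of these data known, were set beside the members. Of 45 other mitotic genes, 37 were tested in Ishikawa, with a median of -0.18 at 8 h, and 30 in T-47D, with a median of 0.22. In Ishikawa 2 of the 37 were lower by 0.32 or more, against 4.21% of all genes. In T-47D 8 of the 30 were higher by that much, against 7.11%. ARL6IP1 was the lowest in both lines (-0.41 and -0.17), and the highest were H2AFX in Ishikawa (0.17) and the centromere gene CENPU in T-47D (0.48). Condensin and cohesin subunits had medians of -0.10 and 0.21 at 8 h, from NCAPD2 (-0.28) to SMC3 (0.07) in Ishikawa and from STAG2 (-0.16) to NCAPG (0.38) in T-47D. APC/C subunits, listed with the ubiquitin-conjugating enzyme UBE2S that works with them, had medians of 0.05 and 0.01, from ANAPC15 (-0.10) to ANAPC1 (0.32) in Ishikawa and from ANAPC16 (-0.09) to UBE2S (0.34) in T-47D.

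Checkpoint and entry genes had medians of -0.08 over 17 tested in Ishikawa and 0.10 over 13 in T-47D at 8 h. The phosphatase CDC25B, which activates CDK1, was the lowest in Ishikawa (-0.38) and PPP2R2A the highest (0.15), while in T-47D CHEK1 was the highest (0.50) and PPP2R2A the lowest (-0.17). CCNA2, cyclin A2, was at 32.3, 32.1, 27.5 and 25.6 CPM in Ishikawa (-0.32 at 8 h) and at 12.2, 12.1, 13.6 and 11.1 CPM in T-47D (-0.12). PTTG1, securin, was at 121, 140, 113 and 114 CPM in Ishikawa and at 96.5, 83.8, 87.5 and 95.3 CPM in T-47D.

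The regulators of these genes had medians of -0.02 over 11 tested in Ishikawa and 0.16 over 9 in T-47D at 8 h. FOXM1, which activates G2 genes, was at 42.2, 41.6, 37.0 and 40.3 CPM in Ishikawa and under the minimum in T-47D, at 6.50 to 7.51 CPM. MYBL2, of the MYB-MuvB complex, was at 27.3 to 28.2 CPM in Ishikawa and 23.0 to 25.8 CPM in T-47D. In T-47D E2F1 was at 15.2, 16.6, 18.7 and 29.1 CPM (0.89 at 8 h), and NFYB, a subunit of NF-Y, was at 91.5, 78.4, 64.3 and 62.2 CPM (-0.55). In Ishikawa E2F7 (-0.20) and E2F4 (0.30) were the ends.

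S phase genes were higher in T-47D and near 0 in Ishikawa. In T-47D the median over 38 of them was 0.06, 0.17 and 0.47 at 2, 4 and 8 h. At 8 h 28 of the 38 were higher by 0.32 or more, against 7.11% of all genes. Their 8 h values ran from UBR7 (-0.03) to MCM10 (1.04). In Ishikawa the median was -0.04, -0.04 and -0.01 over 48, from RFC4 (-0.42) to UNG (0.30) at 8 h. Markers of cells that the cultures should not hold were low: 4 immune markers summed to at most 2.38 CPM in every culture, and 4 stromal and endothelial markers to 6.39 to 7.74 CPM in T-47D and 20.8 to 30.4 CPM in Ishikawa, nearly all of it COL1A1 (-0.52 at 8 h). The part of COL1A1-holding cells in the Ishikawa changes was not tested.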

How the data were processed

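The authors made UMI counts per gene and cell barcode with Cell Ranger 3.1.0 (build hg38, by the submitters' processing notes) from 10x Genomics 3' libraries, and deposited them as matrices of whole counts. A deposited table per line gives the time point called from the MULTI-seq tags, or a doublet call. Of 14985 Ishikawa barcodes 9077 were called to 1 time point, and of 18188 T-47D barcodes 4626. The limits of the study's methods were then applied: in Ishikawa a total of 8500 to 35000 UMIs, from 2700 to 6000 genes, with mitochondrial transcripts below 7%, and in T-47D a total of 7500 to 40000 UMIs, from 1500 to 6000 genes, with mitochondrial transcripts below 20%. Tag doublets (1906 and 1442) were left out. No other doublet caller was run, so pairs of cells with 1 tag remain.

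Counts were summed by line and time point and scaled to the total (CPM). Changes used a pseudocount of 1 CPM and genes of at least 10 CPM on average, and GFP and tdTomato were left out of the genes tested. With 1 culture per group no test was made. Intervals are exact Poisson (CPM), exact binomial conditioned on the sum (ratios, without the pseudocount) and Clopper-Pearson (shares), at 95%, for counting error only. Shares and Spearman correlations used cells thinned to 10000 UMIs, and 13 to 37 Ishikawa cells per culture under that depth were left out. The scripts (Python 3.11.15, numpy 2.4.6, scipy 1.17.1; R 4.3.3, edgeR 4.0.16 and DESeq2 1.42.0 for scaling factors only) were tested on simulated data. Promoters came from RefSeq and were read only for letters.

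Members and lists were chosen with earlier results of these data known. Genes named were 19 fixed members, the highest and lowest member of each line and role group at 8 h, FOXM1, MYBL2, CCNA2 and PTTG1, the ends of each list, and the 10 highest and 5 lowest non-members by rho. Other members were named after their values were seen. Alternatives were other pseudocounts, minimums, folds, scaling factors, cell limits, thinning and UMI limits.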

Additional observations from a re-analysis of the deposited data

Results flagged for a closer look

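The medians of the members at 8 h had opposite signs in the lines, -0.23 in Ishikawa and 0.17 in T-47D, and this difference was not tested because each line and time point was 1 culture. HMGB2 (-0.42 and 0.35), HMMR (-0.44 and 0.34) and NDC80 (-0.44 and 0.46) passed 0.32 on the log2 scale in opposite directions, also untested.

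Some barcodes that enter no comparison more often held many member UMIs than the kept cells of their line. After thinning to 10000 UMIs, at least 20 member UMIs were held by 50.1% of kept Ishikawa cells, 64.4% of tag doublets and 69.0% of the assigned cells outside the quality limits that were deep enough, and by 50.8% of deep enough barcodes without a call, close to the kept cells. In T-47D the shares were 14.3% of kept cells, 18.7% of tag doublets and 25.9% of deep enough barcodes without a call, while the summed member level of T-47D doublets was 2312 CPM, against 2462 CPM in kept cells. No time point can be given for doublets and barcodes without a call.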

How the results depend on the processing

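No paired analysis was possible because each line and time point was 1 culture with no replicate number. Of the recomputed medians, counts of members, shares at 20 UMIs and co-expression values, 132 stayed within a set range and 29 did not. The quality limits dropped no called T-47D cell. The T-47D values with every called cell thus repeat the main ones and are among the 132. The range was the order-statistic interval for medians, the counting interval for shares and 1.5 times for counts. For co-expression it ran from the lowest to the highest of the 4 time points. In Ishikawa the medians at 2 h were 0.0048 with TMM factors, 0.0042 without cells above 1.5 times the median UMI number (the lower UMI limit) and -0.17 in cells under 1% GFP. At 4 h they were -0.12 with every called cell, -0.14 with the lower UMI limit and -0.36 under 1% GFP, and at 8 h -0.35 under 1% GFP. At 8 h 15 of 47 members were lower by 0.32 or more, and 6 of 20 with a minimum of 50 CPM. With every called cell 9 of 48 were, against 7.85% of all genes, and under 1% GFP 28 of 48, against 5.72%. At a fold of 1.5 it was 0 of 47, against 0.469%. In T-47D the lower UMI limit gave medians of -0.15, -0.16 and 0.043, and the mean over cells gave -0.032 at 4 h. There 8 of 39 members were higher at 8 h, and 3 of 19 with 50 CPM. With the lower UMI limit 2 of 37 were, against 6.83% of all genes, and at 1.5-fold 1 of 39, against 2.34%. Lower were 1 of 37 with the lower UMI limit and 1 of 39 with thinning. The share of all genes was not computed for the minimum of 50 CPM or for these lower members. Without thinning, the Ishikawa share at 20 UMIs changed by 7.35 points at 4 h and 4.87 at 8 h, and that at 100 UMIs, which is not among those counts, by 2.49, 0.089 and 0.51 at the 3 times, opposite in sign to the thinned values. The T-47D share at 100 UMIs changed by 2.72 at 8 h without thinning, and the thinned Ishikawa share by -6.74 at 8 h under 1% GFP. The thinned T-47D share at 8 h changed by 0.71 points with a limit of 50 UMIs in place of 20. Co-expression was 0.44 without thinning and 0.38 with 50 CPM in Ishikawa, and in T-47D 0.36 without thinning, 0.47 with Pearson's r, 0.28 with the lower UMI limit and 0.26 with 50 CPM. The causes were not tested. Limits of 50 and 100 UMIs and another thinning seed were chosen after seeing the data. Scaling factors shifted all genes by at most 0.04 on the log2 scale.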
